A study of Mus musculus with 10 samples.

Results

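Messenger RNA of 10 genes that move calcium into and out of the sarcoplasmic reticulum was followed in left ventricular tissue of mice after transverse aortic constriction (TAC), an operation that narrows the aorta and raises the pressure the heart pumps against. The genes, Atp2a2, Pln, Ryr2, Casq2, Trdn, Jph2, Hrc, Fkbp1b, Asph and S100a1, were taken by symbol, and each symbol matched 1 gene among the 45706 in the deposited table. There were 5 libraries from TAC hearts given osimertinib, an oral inhibitor of the epidermal growth factor receptor kinase used in lung cancer, and 5 from TAC hearts given placebo, whose treatment label reads vehicle. All 10 libraries therefore come from pressure-loaded hearts, and hearts without TAC were not analysed here. The study asked what underlies the damage that osimertinib does to the heart. The labels describe the material as all heart cells of the left ventricle, and they do not state strain, sex, age, dose, duration or the number of animals behind each library. Since nothing says that libraries of a group came from separate animals, p-values measure the spread between these libraries, which may be technical.

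In a heart muscle cell, each beat begins when calcium entering from outside opens ryanodine receptors in the membrane of the sarcoplasmic reticulum, and the calcium released from this store makes the filaments contract. Relaxation follows as the pump SERCA2 returns calcium to the store, a step that phospholamban slows until it is phosphorylated. Inside the store calsequestrin holds calcium close to the release channel, where triadin and junctin anchor it, and junctophilin keeps the store against the cell surface membrane. Lower SERCA2 relative to phospholamban is a known feature of failing hearts, which is why the ratio of their transcripts is given here for each library.

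Values are CPM, read counts scaled so that each library totals 1000000, with no factor between libraries. The smallest steps between low values gave the sequencing depth, which was 15863265 reads in the shallowest library and 21309296 in the deepest. Mitochondrially encoded genes took 31.7% to 45.2% of reads in the osimertinib libraries and 38.1% to 63.4% in the placebo libraries, the highest share being that of placebo library 5, which stood apart from the other 9 (31.7% to 48.0%). Genes other than the mitochondrial ones therefore have less room in placebo library 5. A second set of values was made by median-ratio rescaling. It divides each library by its typical ratio to the average library, over those of 12350 tested genes above 0 in every library. That factor was 0.452 for placebo library 5 and 0.921 to 1.34 for the others. The median log2 fold change of all tested genes was 0.27 in the deposited CPM and 0.01 after rescaling, so results are given on both scales, and results without placebo library 5 stand beside those that change. Markers of ventricular muscle were abundant in every library, with 6 genes (Myl2, Myh6, Tnni3, Tnnt2, Myl3 and Actn2) summing to between 23161 and 40556 CPM in osimertinib and between 7605 and 27666 CPM in placebo.

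Per length of the longest coding transcript, the 10 genes fell into tiers. S100a1, Pln and Atp2a2 stood highest in osimertinib hearts, at 676 ± 127, 649 ± 236 and 566 ± 152 CPM per kb (SD, n = 5), against 368 ± 220, 285 ± 132 and 234 ± 107 CPM per kb in placebo hearts, and these 3 neighbours did not differ beyond their spread. Next came Hrc, at 145 ± 46.2 CPM per kb in osimertinib and 83.1 ± 45.7 in placebo, and Casq2, at 109 ± 33.6 and 56.6 ± 20.4 in the same order of groups, which likewise overlap each other. Jph2 followed at 47.0 ± 12.0 CPM per kb in osimertinib and 27.2 ± 12.1 in placebo. The giant Ryr2 transcript (13.9 ± 3.36 and 8.53 ± 3.85), Asph (13.4 ± 2.30 and 9.01 ± 3.96) and Trdn (10.2 ± 3.21 and 5.02 ± 1.74) formed a lower tier whose neighbours were within their spread. Fkbp1b was last by far, at 0.669 ± 0.246 CPM per kb in osimertinib and 0.718 ± 0.421 in placebo. The order in osimertinib was the same when all exon bases of each gene were used as its length. The counts of Trdn and Asph pool several isoforms (7 and 15 coding transcripts in GENCODE M21), and for Asph these include both the enzyme aspartate beta-hydroxylase and junctin.

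**Figure D1:**
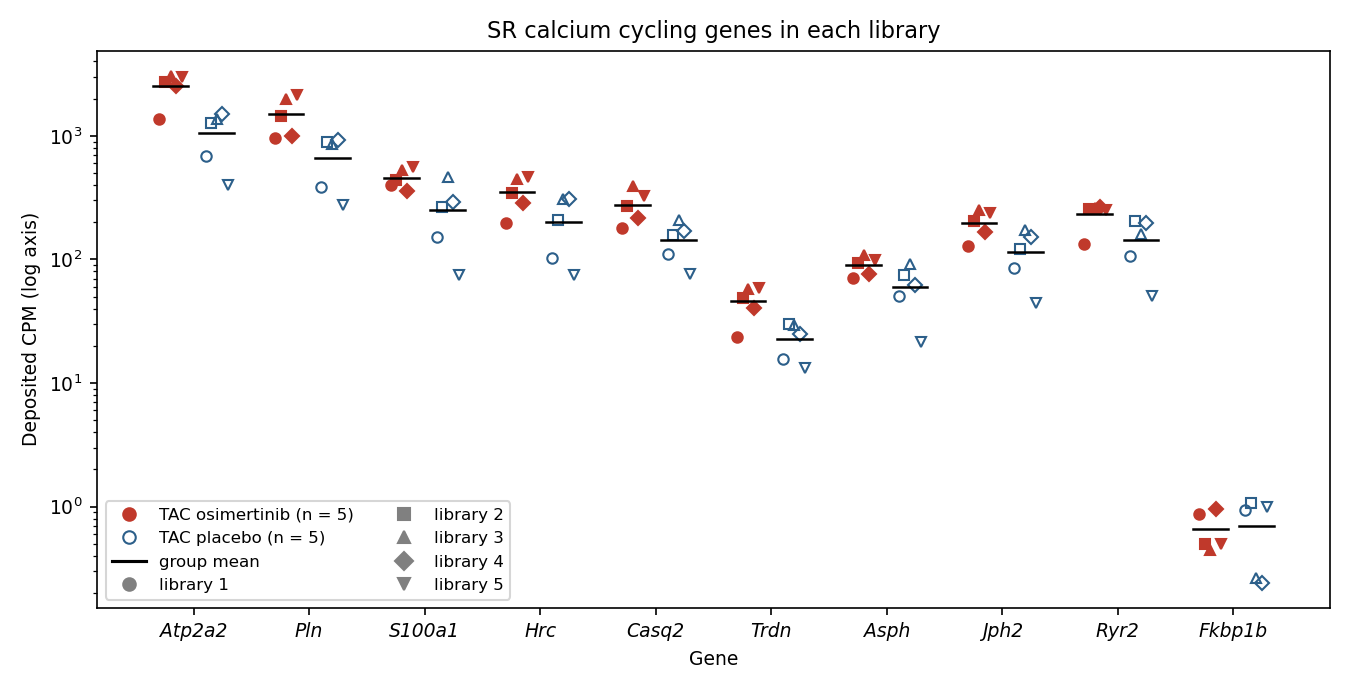
Deposited CPM (log axis) of the 10 genes in each library, TAC osimertinib (filled, left) and TAC placebo (open, right), 5 libraries each, with symbols for the library number and bars at the group means. In 9 of the 10 genes the osimertinib mean lies above the placebo mean, Pln is the gene whose groups do not overlap, and Fkbp1b lies near or below 1 CPM in every library.

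The promoters of Pln, S100a1 and Ryr2 are shown because the first pair belongs to the genes called higher in the deposited CPM. Ryr2 belongs to those with a positive change that missed the threshold. Each is the 250 bases before the RefSeq start on GRCm38.p6, read 5′ to 3′ on the gene's own strand, and capitals mark matches to the motifs searched on both strands, which were the TATA box with the letters TATAAA, the GC box with GGGCGG, the GATA site with AGATAA and the binding site of estrogen-related receptors with TCAAGGTCA. The Pln window lies at chr10:53337436-53337685 on the plus strand, S100a1 at chr3:90514331-90514580 on the minus strand and Ryr2 at chr13:12106946-12107195 on the minus strand.
Pln: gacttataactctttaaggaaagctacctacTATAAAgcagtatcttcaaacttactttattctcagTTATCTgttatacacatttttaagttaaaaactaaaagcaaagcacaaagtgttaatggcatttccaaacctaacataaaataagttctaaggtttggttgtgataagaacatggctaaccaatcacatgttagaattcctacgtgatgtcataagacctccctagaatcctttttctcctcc
S100a1: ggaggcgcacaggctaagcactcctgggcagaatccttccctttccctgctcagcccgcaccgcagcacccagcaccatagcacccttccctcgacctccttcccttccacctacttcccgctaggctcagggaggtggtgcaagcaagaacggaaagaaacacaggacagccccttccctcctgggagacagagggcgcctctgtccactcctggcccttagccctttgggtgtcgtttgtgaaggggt
Ryr2: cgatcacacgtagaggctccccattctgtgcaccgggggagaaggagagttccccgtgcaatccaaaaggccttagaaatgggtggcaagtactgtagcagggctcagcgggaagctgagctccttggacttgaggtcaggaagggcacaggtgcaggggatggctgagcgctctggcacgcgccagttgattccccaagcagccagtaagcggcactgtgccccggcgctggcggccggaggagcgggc
The Pln window was poor in G and C, at 32.8% of its bases, against 61.6% for S100a1, 63.2% for Ryr2 and a median of 52.4% over 32851 promoter windows of the same length. Pln held the TATA box letters 219 to 214 bases before the start, and the GATA letters on the other strand 183 to 178 bases before it. Across all windows the TATA box was found in 12.4%, the GATA site in 9.99%, the GC box in 32.7% and the receptor site in 0.387%. The S100a1 and Ryr2 windows held none of these letters. Of the 10 genes, 7 had a window in the table, and the GC box letters occurred in those of Jph2, Hrc and Fkbp1b.

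The pump and its inhibitor were both higher in osimertinib hearts. Atp2a2 (chr5:122453513-122502225, minus strand, GRCm38), which encodes the calcium pump SERCA2, had 1376, 2744, 3048, 2538 and 2980 CPM in osimertinib libraries 1 to 5 and 681, 1276, 1376, 1513 and 403 CPM in placebo libraries 1 to 5. Osimertinib library 1 lay below placebo library 4, and the other 4 osimertinib libraries lay above all placebo libraries. Atp2a2 rose by a log2 fold change of 1.38 ± 0.34 (SE) in the deposited CPM (limma, adjusted p = 0.00823 over all tested genes) and by 1.09 ± 0.28 after rescaling (adjusted p = 0.0248). Without placebo library 5 the change was 1.07 ± 0.28 in the deposited CPM (adjusted p = 0.0335) and 1.04 ± 0.30 after rescaling (adjusted p = 0.0393). The call held in the deposited CPM whichever single library was left out. In the deposited fits without osimertinib library 2, 3, 4 or 5 or placebo library 1, 3 or 4, the variance shared between genes replaced each gene's own. After rescaling it was lost without osimertinib library 3 or 5 or placebo library 1 or 2 (adjusted p up to 0.0704).

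Pln (chr10:53337667-53345987, plus strand), the gene of phospholamban whose promoter is printed above, had 966, 1445, 2006, 1005 and 2151 CPM in osimertinib libraries 1 to 5 and 389, 890, 853, 921 and 275 CPM in placebo libraries 1 to 5. All 5 osimertinib libraries lay above the highest placebo library, which was so for 5.33% of all tested genes in the higher direction, whereas after rescaling placebo library 4 lay above osimertinib libraries 1 and 4. After rescaling the groups overlapped for all 10 calcium cycling genes, while they were separate in 5.72% of all tested genes in the higher direction and 6.82% in the lower. The log2 fold change of Pln was 1.27 ± 0.34 in the deposited CPM (limma, adjusted p = 0.0146) and 0.98 ± 0.31 after rescaling (adjusted p = 0.0421). It missed the threshold without placebo library 5, at 0.99 ± 0.30 (adjusted p = 0.0532) in the deposited CPM and 0.95 ± 0.33 (adjusted p = 0.0661) after rescaling. The call was also lost in the deposited CPM without osimertinib library 3 or 5 or placebo library 1 (adjusted p up to 0.0645), and after rescaling without osimertinib library 2, 3 or 5 or placebo library 1 or 2 (adjusted p up to 0.107). Pln overlaps Cep85l on the opposite strand, from which the strand-specific libraries named in the design text would tell it apart.

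Since both transcripts were higher, their ratio within a library moved little. The Pln to Atp2a2 ratio of CPM was 0.702, 0.527, 0.658, 0.396 and 0.722 in osimertinib libraries 1 to 5 and 0.571, 0.698, 0.620, 0.609 and 0.682 in placebo libraries 1 to 5. The groups overlapped on both sides, with the 2 highest and the 2 lowest values all belonging to osimertinib. The mean ratio was 0.601 ± 0.138 in osimertinib and 0.636 ± 0.0528 in placebo (SD, n = 5 each), which per length of transcript is 1.16 ± 0.264 and 1.22 ± 0.101. The mean log2 difference was -0.11, with an interval of -0.52 to 0.22 that contains 0 (exact permutation test over 252 assignments, two-sided p = 0.611, adjusted p = 0.611 over 4 ratios). Osimertinib library 4 set the sign of this difference, which was 0.03 without it (exact permutation p = 0.786). A ratio of this kind does not depend on scaling between libraries.

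Ryr2 (chr13:11553102-12106945, minus strand), the channel through which the store releases calcium, had 133, 257, 261, 266 and 249.8 CPM in osimertinib libraries 1 to 5 and 107, 203, 159, 197 and 50.1 CPM in placebo libraries 1 to 5. Osimertinib library 1 lay far below the other 4 and within the placebo range. The log2 fold change was 0.82 ± 0.34 in the deposited CPM (limma, adjusted p = 0.133) and 0.53 ± 0.21 after rescaling (adjusted p = 0.0885), and neither passed. After rescaling it passed when osimertinib library 1 or placebo library 4 was left out (lowest adjusted p = 0.0343). Without placebo library 5 the change of Ryr2 was 0.48 ± 0.24 in the deposited CPM (adjusted p = 0.189) and 0.45 ± 0.22 after rescaling (adjusted p = 0.161).

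Against the pump, the release channel was lower in every osimertinib library than in any placebo library. The Ryr2 to Atp2a2 ratio of CPM was 0.0968, 0.0935, 0.0858, 0.105 and 0.0838 in osimertinib libraries 1 to 5 and 0.157, 0.159, 0.116, 0.130 and 0.124 in placebo libraries 1 to 5. The highest osimertinib value lay below the lowest placebo value. The mean was 0.0930 ± 0.00858 in osimertinib and 0.137 ± 0.0198 in placebo (SD, n = 5 each), a log2 difference of -0.56 with an interval of -0.83 to -0.29 (exact permutation test, two-sided p = 0.00794, the smallest that 5 against 5 allows, adjusted p = 0.0317 over 4 ratios). Leaving out any 1 library gave differences between -0.62 and -0.50 (exact permutation p of 0.00794 to 0.0159), and without placebo library 5 it was -0.59. Most genes were lower relative to Atp2a2 on this measure. Over the 12309 other tested genes with a value above 0 in all libraries, the median difference in the log2 ratio to Atp2a2 was -1.08, 98.0% of the differences were below 0, and the groups were separate in the lower direction for 18.4%. The difference for Ryr2 was smaller in size than that median. The other tested calcium cycling genes were also lower relative to Atp2a2, by -0.11 for Pln to -0.67 for Asph. Among them the groups were separate for Jph2 as well, at -0.49.

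**Figure D2:**
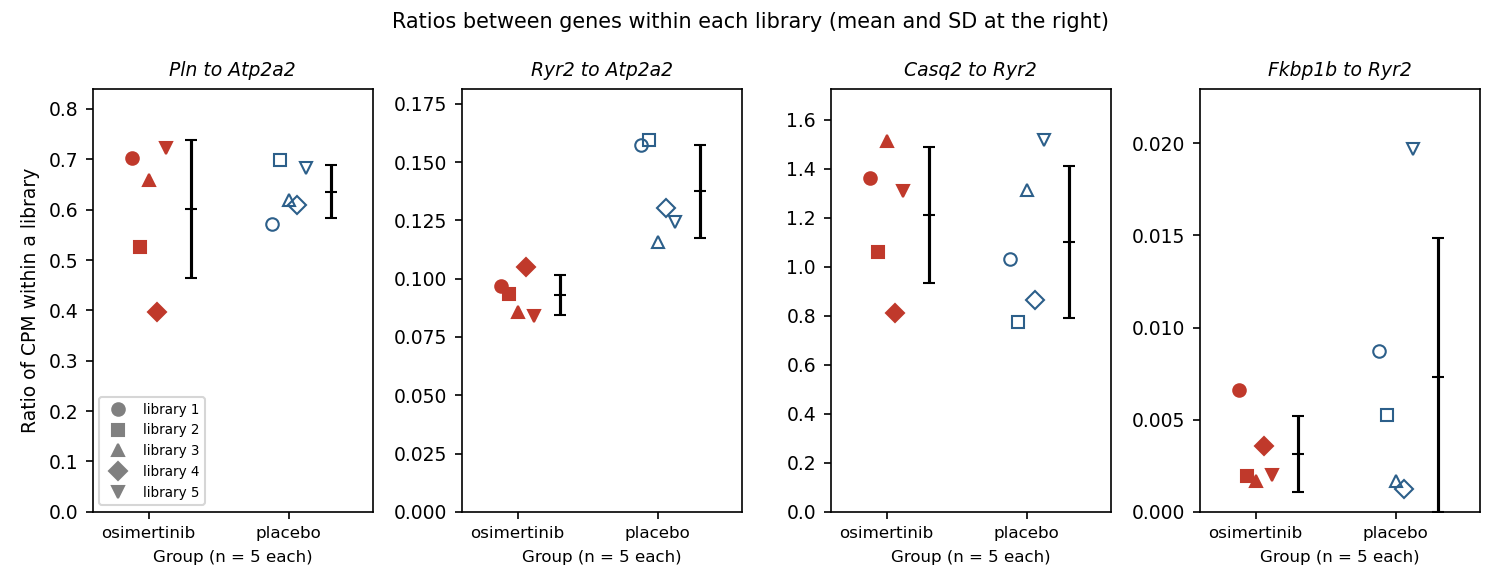
Ratios of CPM within each library for 4 pairs of genes (vertical axes from 0), osimertinib (filled, left) and placebo (open, right), with mean and SD beside the points; the lower SD bar of Fkbp1b to Ryr2 in placebo is cut at 0. The groups are apart for Ryr2 to Atp2a2 (0.0838 to 0.105 in osimertinib, 0.116 to 0.159 in placebo) and overlap for the other pairs.

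Of Trdn, Casq2, Hrc, Jph2 and Asph, whose proteins lie inside and around the store, Trdn passed on both scales and the others on neither. Trdn (chr10:33080554-33476709, plus strand), whose product ties calsequestrin to the ryanodine receptor, had 23.8, 49.0, 57.7, 40.8 and 59.0 CPM in osimertinib libraries 1 to 5 and 15.7, 30.1, 29.7, 24.7 and 13.1 CPM in placebo libraries 1 to 5. Osimertinib library 1 was within the placebo range and the other 4 were above it. Trdn rose by 1.01 ± 0.32 on the log2 scale in the deposited CPM (limma, adjusted p = 0.0407) and by 0.73 ± 0.24 after rescaling (adjusted p = 0.0459). These calls sat close to the threshold. In the deposited CPM Trdn missed it without osimertinib library 2, 3, 4 or 5 or placebo library 1 or 5 (adjusted p up to 0.167, and 0.0566 without placebo library 5). After rescaling it missed it without osimertinib library 2, 3 or 5 or placebo library 1, 2 or 4 (adjusted p up to 0.118).

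Casq2 (chr3:102086415-102146514, plus strand) encodes cardiac calsequestrin, the main calcium-binding protein of the store. It had 181, 272, 396, 216 and 327 CPM in osimertinib libraries 1 to 5 and 110, 157, 209, 170 and 75.9 CPM in placebo libraries 1 to 5. Placebo library 3 reached into the osimertinib range. The log2 fold change was 0.97 ± 0.33 (limma, adjusted p = 0.0574) in the deposited CPM and 0.69 ± 0.23 (adjusted p = 0.0536) after rescaling, just short of the threshold on both scales. It passed on both scales without osimertinib library 1 or placebo library 3, and after rescaling also without osimertinib library 4 (lowest adjusted p 0.0260 and 0.0374 for the deposited and rescaled values). The Casq2 to Ryr2 ratio of CPM, buffer against channel, averaged 1.21 ± 0.278 in osimertinib and 1.10 ± 0.310 in placebo (SD, n = 5 each). Its log2 difference was 0.15, with an interval of -0.43 to 0.75 (exact permutation p = 0.556, adjusted p = 0.611).

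Hrc (chr7:45335290-45338974, plus strand), a histidine-rich calcium-binding protein of the store that binds both the pump and triadin, had 197, 346, 451, 288 and 460 CPM in osimertinib libraries 1 to 5 and 103, 209, 308, 307 and 74.5 CPM in placebo libraries 1 to 5. Its groups overlapped, with 3 of 5 osimertinib libraries above the highest placebo library. The log2 fold change was 0.95 ± 0.35 (limma, adjusted p = 0.0825) in the deposited CPM and 0.66 ± 0.33 (adjusted p = 0.154) after rescaling, and in the deposited CPM it passed without osimertinib library 1 or placebo library 3 or 4.

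Jph2 (chr2:163336242-163397993, minus strand), junctophilin 2, had 128, 206, 251, 167 and 237 CPM in osimertinib libraries 1 to 5 and 84.9, 120, 172, 151 and 44.8 CPM in placebo libraries 1 to 5. Osimertinib libraries 1 and 4 lay within the placebo range. Its log2 fold change was 0.89 ± 0.34 (limma, adjusted p = 0.0942) in the deposited CPM and 0.60 ± 0.24 (adjusted p = 0.0829) after rescaling. Jph2 passed without placebo library 3 on both scales and without placebo library 4 after rescaling. Asph (chr4:9448069-9669344, minus strand), the gene of junctin and of the hydroxylase, ranged from 71.2 to 108 CPM with a median of 94.3 in osimertinib and from 21.6 to 92.2 CPM with a median of 62.3 in placebo. Asph had the smallest change of the 9 tested genes, at 0.70 ± 0.33 (limma, adjusted p = 0.200) in the deposited CPM and 0.42 ± 0.18 (adjusted p = 0.107) after rescaling, where it passed without placebo library 3. Without placebo library 5 the change of Asph in the deposited CPM was 0.37 ± 0.20 (adjusted p = 0.217), and that of Jph2 was 0.59 ± 0.23 (adjusted p = 0.112).

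Regulators of the channel and pump differed widely in level. S100a1 (chr3:90511034-90514392, minus strand) encodes a calcium sensor that binds SERCA2 and the ryanodine receptor, and it had 400.0, 441, 525, 359 and 565 CPM in osimertinib libraries 1 to 5 and 152, 264, 466, 290.3 and 74.8 CPM in placebo libraries 1 to 5. Placebo library 3 lay above 3 of the 5 osimertinib libraries. S100a1 rose by 1.10 ± 0.35 in the deposited CPM (limma, adjusted p = 0.0381), and after rescaling its 0.82 ± 0.29 missed the threshold (adjusted p = 0.0608). The call in the deposited CPM was lost without osimertinib library 2, 3 or 5 or placebo library 1, 2 or 5 (adjusted p up to 0.111), with 0.73 ± 0.26 and an adjusted p of 0.0810 without placebo library 5. The rescaled value passed without placebo library 3 or 4.

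Fkbp1b (chr12:4833174-4841591, minus strand), the gene of FKBP12.6, a small protein bound to the ryanodine receptor that is credited with keeping it closed at rest, was close to the limit of detection. It had an estimated 15, 8, 8, 16 and 9 reads in osimertinib libraries 1 to 5 and 19, 17, 5, 4 and 21 reads in placebo libraries 1 to 5, with 0.653 ± 0.240 CPM in osimertinib and 0.700 ± 0.411 CPM in placebo (SD, n = 5 each). It failed the filter of at least 1 CPM in at least 5 libraries and was not tested. The Fkbp1b to Ryr2 ratio gave a log2 difference of -0.72 with an interval of -2.73 to 1.31 (exact permutation p = 0.429, adjusted p = 0.611). That wide interval contains 0, so neither the sign nor the size of the difference is settled. The log2 ratio had an SD of 0.82 between osimertinib libraries and 1.66 between placebo libraries. Its paralogue Fkbp1a, the FKBP12 gene, was far more abundant, at 82.8 ± 6.36 CPM per kb in osimertinib and 81.6 ± 25.6 CPM per kb in placebo, and its log2 fold change was 0.09 ± 0.32 in the deposited CPM (limma, adjusted p = 0.906) and -0.19 ± 0.10 after rescaling (adjusted p = 0.184).

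In all, 9 of the 10 genes entered the test and 4 of the 9 rose in the deposited CPM (Atp2a2, Pln, S100a1 and Trdn), where 6.62% of all tested genes were called higher and 0.13% lower. After rescaling 3 of the 9 rose (Atp2a2, Pln and Trdn), where 10.4% of all tested genes were called higher and 10.5% lower. None of the 9 was called lower on either scale. The median log2 fold change of the 9 was 0.97 against 0.27 over all tested genes in the deposited CPM, and 0.69 against 0.01 after rescaling. An unadjusted p under 0.05 was reached by 9 genes in the deposited CPM, against 21.6% of all tested genes, and by 8 after rescaling, where Hrc was the exception, against 38.3%. Without placebo library 5, 1 gene passed in the deposited CPM (Atp2a2), where 4.59% of all tested genes were called higher and 1.93% lower, and 2 after rescaling (Atp2a2 and Trdn), where these shares were 8.2% and 9.53%. The median of the 9 genes in these fits was 0.73 in the deposited CPM and 0.70 after rescaling, against 0.06 and 0.02 over all tested genes.

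**Figure D3:**
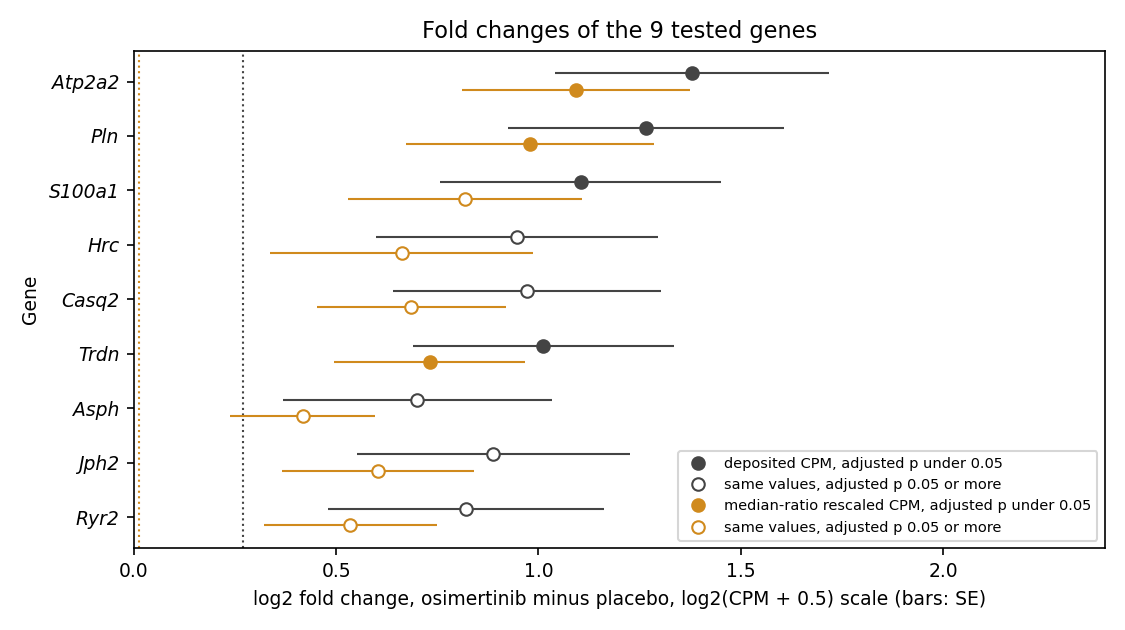
Log2 fold changes, osimertinib minus placebo, of the 9 tested genes on the log2(CPM + 0.5) scale (bars: SE), for deposited and median-ratio rescaled CPM, with dotted lines at the median of all tested genes (0.27 and 0.01). All 9 points are to the right of their line on both scales, and filled points mark an adjusted p under 0.05.

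The levels of the 9 tested genes went up and down together from library to library. After rescaling, with each gene centred on its own mean, they averaged -0.06, 0.31, 0.67, 0.09 and 0.81 log2 units in osimertinib libraries 1 to 5 and -0.99, -0.52, 0.10, 0.11 and -0.53 in placebo libraries 1 to 5. Osimertinib libraries 1 and 4 were thus at the level of placebo libraries 3 and 4, whereas osimertinib libraries 3 and 5 were the highest and placebo library 1 the lowest. Over the 36 pairs of these genes, the SD of the log2 ratio across 10 libraries ran from 0.171 for Casq2 and Jph2 to 0.463, with a median of 0.313, and was 0.262 for Atp2a2 and Pln. These libraries share the differences in depth and tissue makeup described here, so this closeness is a description only.

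Ventricular muscle markers moved in the same direction. The 6 markers summed to 23161, 33484, 39813, 29009 and 40556 CPM in osimertinib libraries 1 to 5 and to 12853, 22659, 27666, 27132 and 7605 CPM in placebo libraries 1 to 5. Of the 6, 4 were called higher in the deposited CPM and 1 after rescaling (limma), with median log2 fold changes of 1.09 and 0.80, close to those of the calcium cycling genes. In bulk tissue, fewer muscle cells and less of these transcripts per cell cannot be told apart. Myh6 was the largest part of the marker sum, averaging 13200 CPM in osimertinib and 9275 CPM in placebo. It changed least of the 6, by 0.59 ± 0.31 in the deposited CPM (limma, adjusted p = 0.263). The other markers changed by 0.97 (Tnni3) to 1.46 (Myl3), against 1.38 for Atp2a2. Relative to the summed markers, Atp2a2 was higher by 0.49 log2 units in osimertinib, with groups that did not overlap (-4.07 to -3.51 in osimertinib and -4.33 to -4.15 in placebo). With Myh6 taken out of the sum, the groups overlapped. Osimertinib libraries 1 and 5 then lay within the placebo range of the ratio, so the separation depended on Myh6. On the ratio to all 6 markers the groups were separate in the higher direction for 1.02% of 12304 tested genes outside the marker list. They were separate in the lower direction for 5.04%, and the median difference of these genes was -0.59. The other differences on this measure, which was chosen after the values were seen and not tested, were 0.38 for Pln, 0.22 for S100a1, 0.14 for Trdn, 0.08 for Casq2, 0.06 for Hrc, 0.00 for Jph2, -0.07 for Ryr2 and -0.18 for Asph, and in all 8 the groups overlapped.

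Atrial markers were uneven between libraries. The 6 listed (Myl7, Myl4, Sln, Bmp10, Stard10 and Dkk3) summed to 742, 1042, 22.6, 3431 and 25.2 CPM in osimertinib libraries 1 to 5 and to 650.5, 192, 17.0, 25.2 and 292 CPM in placebo libraries 1 to 5, with Bmp10 at 0 in every library. Of the 5 tested, 2 were called higher in the deposited CPM and none after rescaling (limma). Osimertinib library 4 combined the highest atrial sum with the lowest Pln to Atp2a2 ratio, and the part of atrial tissue in that value was not tested. With the atrial marker level as a covariate after rescaling, all 9 tested genes passed (limma, adjusted p up to 0.0127), with log2 fold changes of 0.51 for Asph to 1.21 for Atp2a2. That fit made more calls in general, with 21.3% of all tested genes called higher and 17.5% lower. Summed markers of other cells overlapped between the groups, at 992 to 1410 CPM in osimertinib and 470.5 to 1809 in placebo for endothelium, 490 to 1014 and 245 to 663 for fibroblasts, 80.6 to 114 and 34.1 to 87.0 for macrophages, and 471 to 728 and 145 to 627 for smooth muscle and pericytes. None of these markers was called in the deposited CPM, and after rescaling the macrophage gene Adgre1 was called higher (0.60 ± 0.19, adjusted p = 0.0437) and the endothelial gene Tie1 lower (-0.38 ± 0.12, adjusted p = 0.0454). With 1 library left out after rescaling, Adgre1 held only without placebo library 5, and Tie1 only without osimertinib library 1 or placebo library 3. Skeletal muscle markers stayed between 0.830 and 1.44 CPM in osimertinib and between 1.08 and 1.95 CPM in placebo, with Myh4 at 0 in every library.

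**Figure D4:**
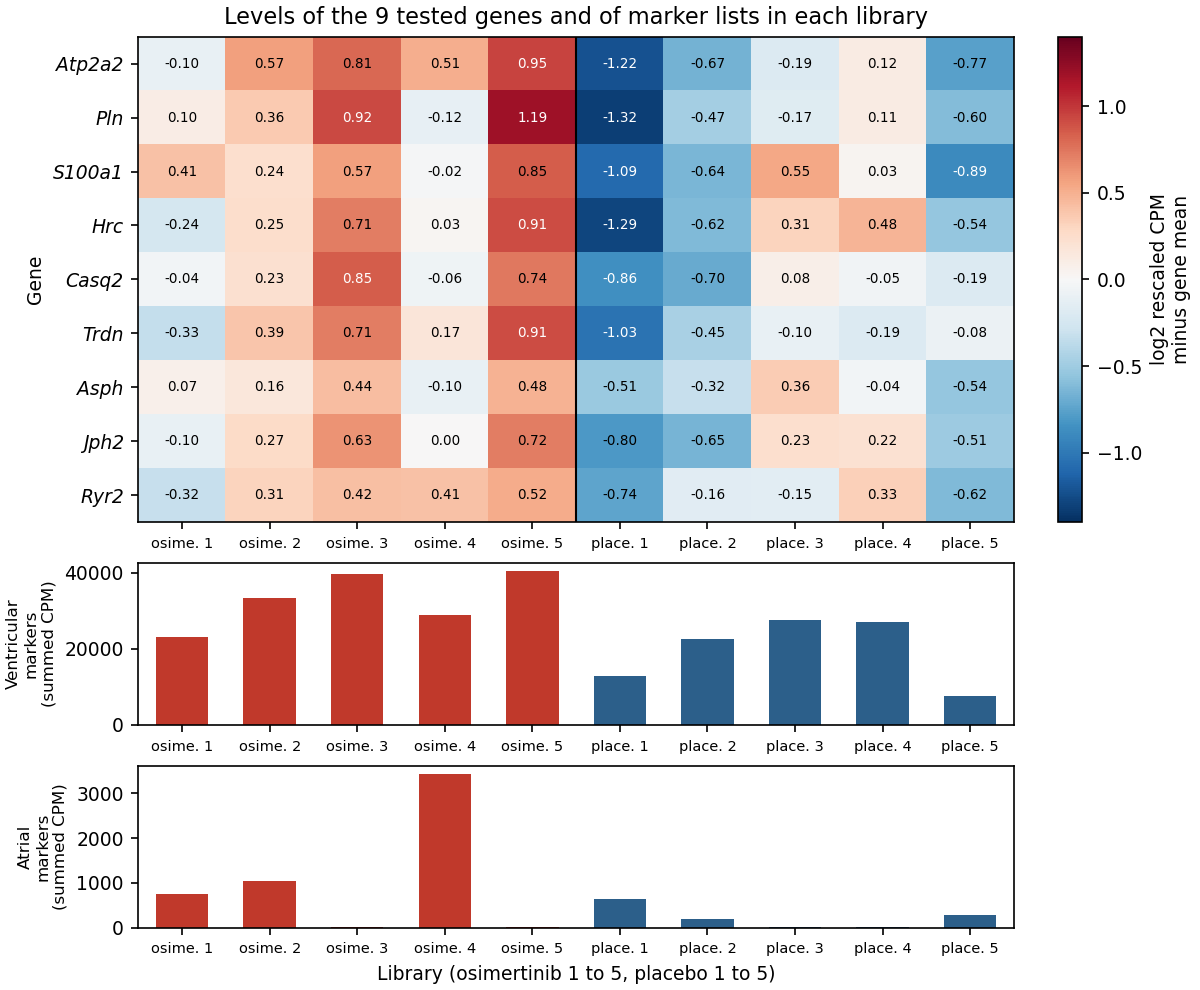
Top, log2 rescaled CPM of the 9 tested genes minus each gene's mean, in osimertinib libraries 1 to 5 (left) and placebo libraries 1 to 5 (right); below, summed deposited CPM of 6 ventricular and 6 atrial markers in the same libraries. Osimertinib libraries 3 and 5 are highest for most genes and placebo library 1 lowest, and the atrial sum is highest in osimertinib library 4 at 3431 CPM.

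A wider list of 51 genes of calcium handling held paralogues, accessory proteins and regulators, of which 50 were in the table and 43 were tested. In the deposited CPM 8 of the 43 rose and 0 fell, with a median log2 fold change of 0.35 against 0.27 over all tested genes. After rescaling 11 rose and 3 fell, with a median of 0.07 against 0.01. Over all tested genes, 6.62% were called higher and 0.13% lower in the deposited CPM, and 10.4% higher and 10.5% lower after rescaling. The 8 that rose on both scales were Myoz2, Akap6, Cav3, Ppp1r3a, Srl, Pde3a, Casq1 and Jph1. Leaving out placebo library 5 gave 6 higher and 0 lower in the deposited CPM and 7 higher and 1 lower after rescaling, and the shares of all tested genes called without that library are those given above, 4.59% higher and 1.93% lower in the deposited CPM and 8.2% higher and 9.53% lower after rescaling.

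Of these 8, Srl, Casq1 and Jph1 encode proteins of the store itself or its junctions. Srl, which encodes sarcalumenin, a calcium-binding protein of the store, rose by 1.14 ± 0.34 in the deposited CPM (limma, adjusted p = 0.0265) and 0.86 ± 0.28 after rescaling (adjusted p = 0.0460). It averaged 261 ± 75.0 CPM in osimertinib and 125 ± 59.7 CPM in placebo (SD, n = 5 each). Casq1 and Jph1, known best as the skeletal muscle forms of calsequestrin and junctophilin, rose by 1.07 ± 0.30 and 0.96 ± 0.31 in the deposited CPM (adjusted p = 0.0210 and 0.0406) and by 0.81 ± 0.20 and 0.73 ± 0.22 after rescaling (adjusted p = 0.0208 and 0.0357). Both were scarce beside their cardiac paralogues, at 6.37 ± 1.904 and 0.903 ± 0.241 CPM per kb in osimertinib hearts and 2.91 ± 0.921 and 0.425 ± 0.176 in placebo hearts. Tmem38a, the potassium-permeable channel TRIC-A of the same membrane, had a log2 fold change of 0.98 ± 0.34 in the deposited CPM (adjusted p = 0.0596) and 0.70 ± 0.28 after rescaling (adjusted p = 0.0842), and neither passed.

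Among regulators, Myoz2, which encodes a Z-disc protein that binds calcineurin, changed most, by 1.41 ± 0.34 (limma, adjusted p = 0.00823) in the deposited CPM and 1.12 ± 0.31 after rescaling. Akap6, an anchor for protein kinase A at the nuclear envelope and sarcoplasmic reticulum, rose by 1.24 ± 0.33 (adjusted p = 0.0127), and Pde3a, a phosphodiesterase that breaks down cAMP, by 1.09 ± 0.31 (adjusted p = 0.0228). Ppp1r3a, a targeting subunit of protein phosphatase 1, rose by 1.14 ± 0.32 (adjusted p = 0.0176) and Cav3, muscle caveolin, by 1.19 ± 0.33 (adjusted p = 0.0190). After rescaling only, the catalytic subunit of protein kinase A Prkaca rose by 0.68 ± 0.18 and the catalytic subunits of protein phosphatase 1 Ppp1ca and Ppp1cb by 0.50 ± 0.15 and 0.44 ± 0.12. Also after rescaling only, the calcium-activated kinase gene Camk2b fell by 0.67 ± 0.22 and the junction-associated kinase gene Speg by 0.57 ± 0.16 (limma, adjusted p = 0.0498 and 0.0297).

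Several of these calls were lost when any of a number of libraries was left out. As said for Atp2a2, most of the deposited fits with a library left out replaced each gene's own variance by that shared between genes. In the deposited CPM Myoz2 and Akap6 held whichever library was left out, Pde3a was lost without osimertinib library 3 or 5, Casq1 without osimertinib library 2, 3 or 4, and Ppp1r3a without osimertinib library 3 or 5 or placebo library 1. Cav3 was lost without osimertinib library 3 or 5 or placebo library 1 or 5, Srl without these or osimertinib library 2, and Jph1 without osimertinib library 2, 3, 4 or 5 or placebo library 1 or 5. After rescaling Pde3a held in 10 of 10 such fits and Casq1 in 9, being lost without placebo library 2. The other 6 held in 3 to 6 of 10, each being lost without osimertinib library 3 or 5 or placebo library 1 or 2, among others for some. Of the genes called only after rescaling, Prkaca, Ppp1ca and Speg held in 6 of 10 and Ppp1cb in 5, with losses among the same 4 libraries and, for Ppp1cb, osimertinib library 2. Camk2b held only without osimertinib library 1 or 2.

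The remaining paralogues did not pass on either scale. Atp2a3, a pump of non-muscle cells, had a log2 fold change of 0.13 ± 0.31 in the deposited CPM (limma, adjusted p = 0.855) and -0.15 ± 0.14 after rescaling (adjusted p = 0.457). The inositol trisphosphate receptor gene Itpr2 had -0.05 ± 0.31 in the deposited CPM (adjusted p = 0.949) and -0.32 ± 0.13 after rescaling (adjusted p = 0.0884). Ryr3 had 0.29 ± 0.34 (adjusted p = 0.677) and 0.07 ± 0.47 (adjusted p = 0.927) on the same scales. Atp2a1, Ryr1 and Strit1, the gene of a small membrane peptide called DWORF, did not pass the filter on low values, with highest values of 1.901, 0.277 and 0.887 CPM in osimertinib and 0.252, 0.581 and 1.16 CPM in placebo. Sln, which encodes sarcolipin, a pump inhibitor of atrial muscle, had 65.5, 104, 0, 344 and 0 CPM in osimertinib libraries 1 to 5 and 67.2, 19.1, 0.11, 0 and 12.4 CPM in placebo libraries 1 to 5. Its high libraries were among those with high sums of atrial markers, a list that includes Sln itself. The log2 fold change of Sln was 1.37 ± 0.83 in the deposited CPM (adjusted p = 0.346) and 1.15 ± 1.96 after rescaling (adjusted p = 0.698). In the deposited CPM alone it passed without osimertinib library 3 or 5 or placebo library 1, which are fits in which the variance shared between genes replaced the gene's own.

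**Figure D5:**
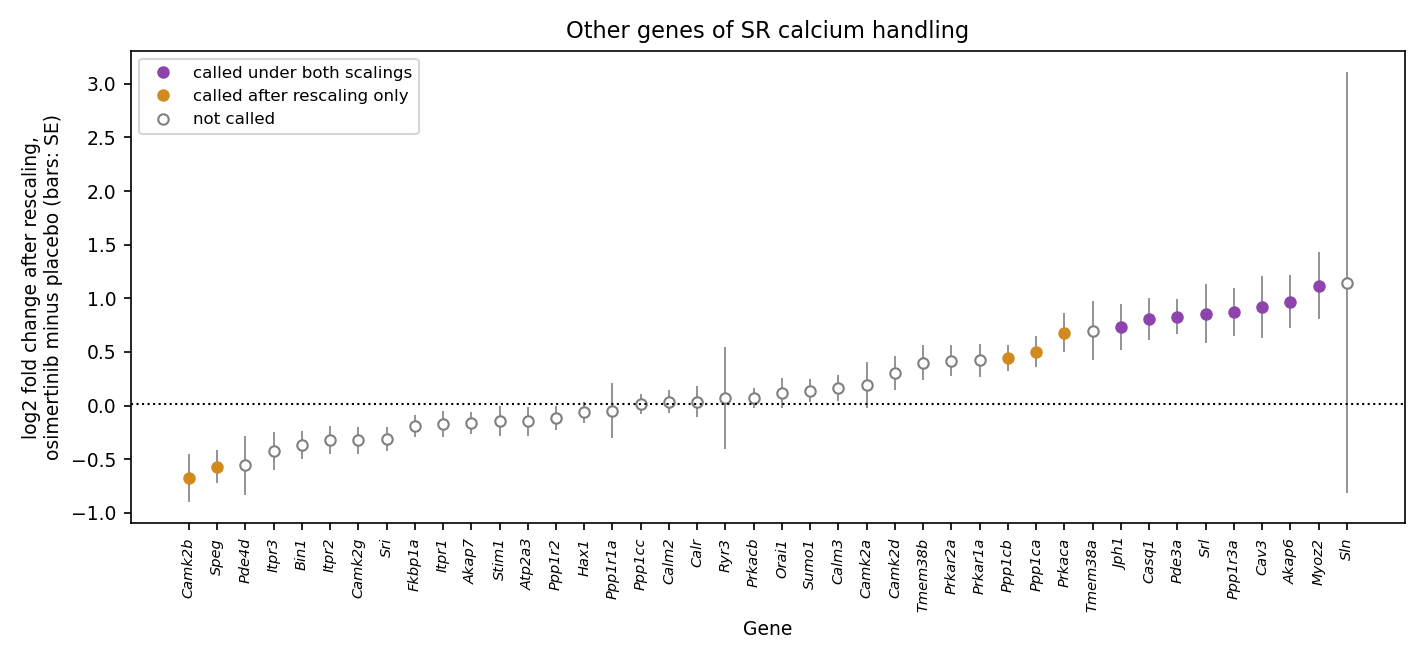
Log2 fold change after rescaling, osimertinib minus placebo (bars: SE), of tested genes of the calcium handling list, in order of size, with a dotted line at the median of all tested genes (0.01). The 8 genes called on both scales lie between 0.73 and 1.12, and the SE of Sln, 1.96, is the widest.

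The genes whose level followed each of 3 key genes most closely were taken by the SD of the log2 ratio over all 10 libraries, among 9019 genes averaging 5 CPM or more. For Atp2a2 they were Gstk1 (SD 0.0957), Rtn2 (0.119), Mccc1 (0.131), Rai2 (0.151) and Atp5f1b (0.156), against a median SD of 0.758. For Pln they were Sirt5 (0.123), Pgm1 (0.125), Slc25a11 (0.126), Lrrc24 (0.129) and Eef1a2 (0.136), against a median of 0.764. For Ryr2 they were Dhrs11 (0.120), Slc20a2 (0.151), Ilvbl (0.151), Blcap (0.160) and Herpud1 (0.161), against a median of 0.515. The 5 genes nearest to each were picked as the smallest SDs among 9019, so they are no yardstick for a pair named beforehand. Atp2a2 and Pln had an SD of 0.262 to each other, below the medians of 0.758 and 0.764.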

How the data were processed

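Left ventricular poly(A) RNA from 10 mouse samples, 5 per group, was made into libraries from 5 ug of total RNA each, per the labels' protocols. The authors deposited CPM, in which each column sums to 1000000. Alignment to GRCm38 used STAR, quantification RSEM within nf-core, and testing limma with voom, per the design text. The submitters' processing notes list cutadapt 1.9, HISAT2 2.0.4, StringTie 1.3.4d, DESeq2 and the human build hg38 instead. GENCODE M21 (GRCm38) held 98.8% of the gene identifiers.

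Low values came out as whole reads, to 0.01 read, in 90.7% to 93.4% of cases under 200 reads, so the reads are estimates and count tests were not run. Within groups, all 20 pairs of libraries differed by more than sampling noise (chi-square at least 22.7 per degree of freedom).

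The filter kept 12350 genes, those reaching 1 CPM in 5 or more libraries. Limma 3.58.1 (R 4.3.3) was fitted to log2(CPM + 0.5) with a trend on intensity, and two-sided p-values were adjusted by Benjamini-Hochberg over the 12350, with calls at 0.05. Fold changes are on that scale, which understates changes of low genes. Prior degrees of freedom were 72.9 for the deposited and 4.45 for the rescaled values, so calls in the deposited values rest more on variance shared between genes. Ratios within a library were compared by the exact permutation test over 252 assignments (scipy 1.17.1), and inverting it at 0.05 gave the intervals.

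The genes, lists and tests were chosen with earlier results of these data known. Named genes were all 10 members, the listed pathway genes called on either scale, 12 paralogues and regulators fixed by name, and the 5 genes nearest in ratio to Atp2a2, Pln and Ryr2. Of the pathway genes so named, 1 is counted but not reported here. The fit was tested on simulated data in which all libraries shared the same average profile apart from planted changes. Differences in makeup between libraries, as seen here, were not covered by it. Settings varied were scaling, pseudocount, filter, trend, array weights, the replicate block, an atrial covariate, voom and leaving out each library.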

Additional observations from a re-analysis of the deposited data

Results flagged for a closer look

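Ryr2 in osimertinib library 1, at 133 CPM, lay apart from the other 4 osimertinib libraries, which were between 249.8 and 266 CPM. The gap was 0.875 of the group's range, against a limit of 0.71 for 5 samples. It was the 1 value so marked among 50 groups of 5 checked, and chance marks about 1 group in 20.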

How the results depend on the processing

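Each of the 9 calcium cycling genes that passed the filter kept a positive log2 fold change under every alternative run. The number called higher, 4 in the deposited CPM, was 2 with quantile normalization, 1 without mitochondrial and haemoglobin genes, 2 with a pseudocount of 0.1, 9 with rescaling and the atrial covariate, and 0 with no filter, where limma called no gene (smallest adjusted p 0.0707, with 3269 genes at an unadjusted p under 0.05). Leaving out 1 library gave 1 to 7 in the deposited CPM and 0 to 7 after rescaling. On the wider list, 8 genes were higher, against 0 with no filter, 13 with array weights, 13 with rescaling and the replicate block, and 16 with the atrial covariate, and 3 to 10 (deposited) or 1 to 12 (rescaled) with a library left out. None was lower, against 3 after rescaling, 4 with quantile normalization, 2 with rescaling and the replicate block, 9 with the atrial covariate and 2 with voom, and 0 (deposited) or 0 to 5 (rescaled) with a library left out. Calls over all 12350 tested genes moved as well. With array weights 2159 were higher, and with rescaling and the replicate block 1594 were higher and 1355 lower. Those called lower numbered 16 in the deposited CPM, 1291 after rescaling and 1430 with quantile normalization. They numbered 2159 with the atrial covariate and 1318 with voom. The cause of these shifts was not tested. The Pln to Atp2a2 difference of -0.11 ranged from -0.19 to 0.030 with a library left out, and was 0.0297 without osimertinib library 4.

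Same-numbered libraries deviated together for some numbers and not for others (correlations 0.429, 0.251, 0.466, -0.334 and -0.175 for numbers 1 to 5). Of the 5 osimertinib libraries, 2 correlated best with their own number. With the replicate block 6 calcium cycling genes and 11 list genes were higher in the deposited CPM, and 5 and 13 after rescaling. Over all 12350 tested genes, 1286 and 1594 were called higher in the same fits. In the deposited fit with the block, the variance shared between genes replaced each gene's own. With the replicate block the Ryr2 to Atp2a2 difference of -0.56 had an exact p of 0.0625, the smallest that 5 pairs allow. Values of Fkbp1b rest on few reads, with 4 to 21 estimated reads per library.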
